A study of Mus musculus with 2 samples.

Results

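Ifi27 and Ifi27l2a, members of the Ifi27 gene family, were taken by name from the count tables of a mouse bone marrow study. They are 2 of the 27842 genes with a count in either library, and both were counted in both libraries. The pair was picked because its level differed between the libraries, so that difference is a description here and carries no test. The T1D library was made from C57/BL6 mice that had high blood sugar after streptozotocin, which kills the beta cells that make insulin. The control library was made from C57/BL6 mice that had normal blood sugar after sodium citrate, the usual solvent of streptozotocin. Both came from marrow of femurs and tibias, freed by digestion with collagenase and dispase and cleared of red cells by lysis, and both were made with the Singleron GEXSCOPE single-cell kit on a microfluidic chip. Neither the age of the mice nor the number of animals behind a library is given, and a chemical lesion of the beta cells is a model of the loss of insulin, not of the autoimmune disease. Each group had 1 library, so every difference below lies between 2 preparations and has no replicate check.

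Ifi27 family genes encode small hydrophobic membrane proteins, also called ISG12 proteins, that are found at mitochondria and at the nuclear envelope. Type I interferons induce them: the interferon binds the receptor Ifnar1-Ifnar2, the kinases Jak1 and Tyk2 pass the signal on, and genes with an interferon-stimulated response element are switched on. In human blood, IFI27 is a widely used marker of the interferon response to virus infection. In mice, Ifi27l2a is also known as Isg12b1, and ISG12 proteins were reported to carry nuclear receptors of the Nr4a group out of the nucleus.

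Of 15771 barcodes in the T1D library 15579 passed the filters, and of 12880 in the control library 12803. The tables summed to 52022458 counts in the T1D library and 57494166 in the control library. Kept cells had a median of 2757 counts in the T1D library and 3633 in the control library, so every plain share of cells carries that gap. For this reason shares are also given after each cell was thinned at random to 1000 counts, a depth that every kept cell reached. The libraries shared 253 barcodes. Without those cells the log2 ratio of neither gene over all kept cells moved by more than its counting interval reaches from its centre. Cells were clustered without the Ifi27 family and without interferon response genes that are no markers, and 28 of 31 clusters took a name from marker genes. Class names such as classical monocytes mean cells like these by their markers, since no sorted cells were used. All 4 clusters of B cell precursors held control cells only, so the T1D level of either gene in them is unknown.

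Over all kept cells, Ifi27l2a had 463 counts in the T1D library and 5925 in the control library. This made 8.96 CPM, counts per 1000000 of the summed cells, in the T1D library (exact Poisson 95% interval 8.16 to 9.81), against 103 CPM in the control library (101 to 106). Ifi27l2a was thus 11.5-fold lower in the T1D library (exact binomial interval of the ratio 10.5 to 12.7). Ifi27 had 1315 counts or 25.4 CPM in the T1D library, against 3213 counts or 56.1 CPM in the control library, and was 2.20-fold lower in the T1D library (2.07 to 2.35). Another relative, Ifi27l2b, had 1 count in the T1D library and 3 in the control library, too few for a statement on its level. All intervals cover counting error only, because the cells of 1 library are not replicates.

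The order of the genes was different in the libraries. In the T1D library Ifi27l2a gave 26.04% of the pair's counts, and in the control library 64.8%. At least 1 count of Ifi27l2a was found in 2.11% of T1D cells and 19.4% of control cells, and after thinning to equal depth in 0.822% of T1D cells and 8.21% of control cells. At least 1 count of Ifi27 was found in 6.14% of T1D cells and 16.6% of control cells, and after thinning in 2.32% of T1D cells and 5.37% of control cells. The highest count of Ifi27l2a in a single cell was 8 in the T1D library and 26 in the control library.

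**Figure D1:**
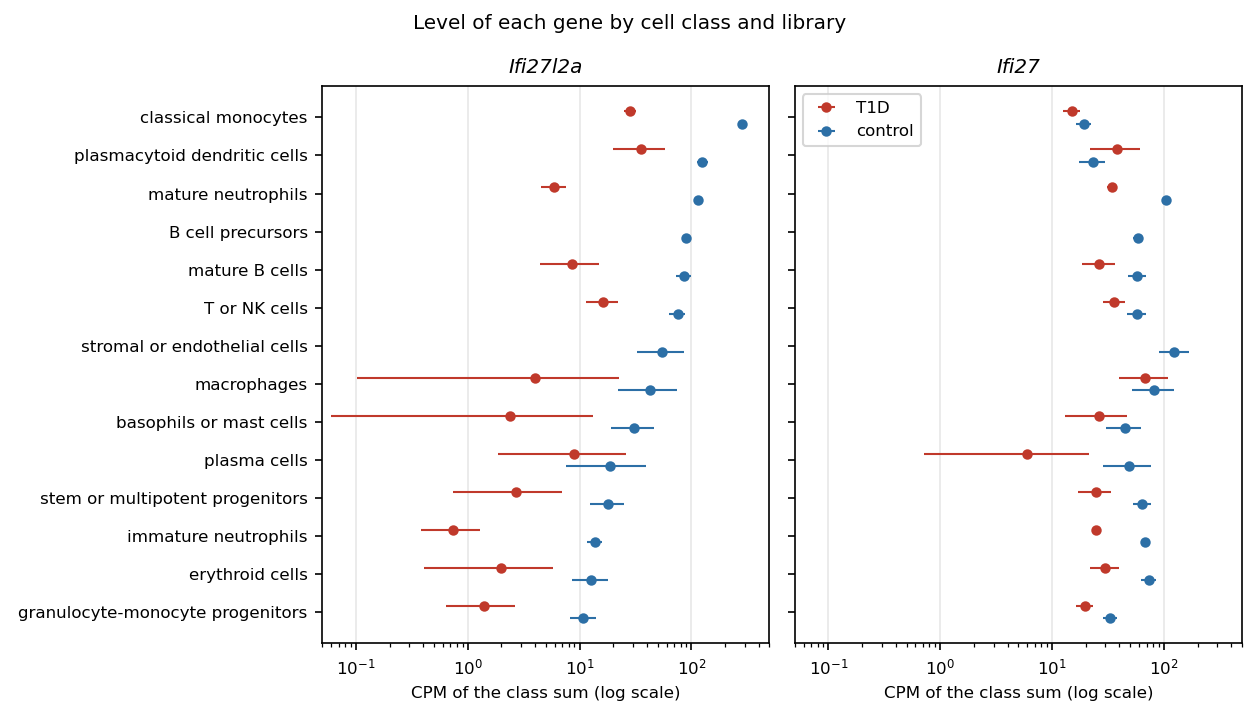
CPM of the class sum (log axis) for each class with at least 50 cells in a library, T1D in red above control in blue; points are class levels and bars exact Poisson 95% intervals. Ifi27l2a spanned from 10.8 CPM in granulocyte-monocyte progenitors to 287 CPM in classical monocytes of the control library, while Ifi27 was lowest in classical monocytes there at 19.1 CPM.

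Classical monocytes, the Ly6c2- and Ccr2-expressing cells that leave the marrow to become tissue macrophages, held the largest share of the Ifi27l2a counts of any class in each library. They gave 57.2% of the gene's counts in the T1D library and 46.5% in the control library. Their level was 28.5 CPM in the T1D library (25.2 to 32.1), against 287 CPM in the control library (276 to 297), which is 10.1-fold lower in the T1D library (8.87 to 11.5). A count of Ifi27l2a was seen in 8% of 2150 T1D monocytes and in 53.0% of 1648 control monocytes, at median depths of 3950 counts in T1D monocytes and 5172 in control monocytes. After thinning these shares were 3.16% (Clopper-Pearson interval 2.46% to 3.99%) in T1D monocytes and 22.7% (20.7% to 24.8%) in control monocytes. The gene was low in the T1D monocytes as a whole and was not lost there, since their share stood well above that of T1D immature neutrophils, 0.152% after thinning at a median depth of 2719 counts.

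The T1D monocytes lay low in each of 3 clusters. In the largest, led by Vcan and Fn1, the level was 36.9 CPM in the T1D library, against 385 CPM in the control library. A cluster led by Saa3, an acute-phase protein gene, had 46.8 CPM in the T1D library and 249 CPM in the control library. A cluster led by Itga1 and F13a1 had 8.86 CPM in the T1D library and 164 CPM in the control library. The intervals of the libraries did not overlap in any of the 3 clusters.

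Ifi27l2a had more CPM in mature than in immature neutrophils in each library, though neither T1D class level was distinguishable from background by hemoglobin genes. Mature neutrophils, named from Retnlg, Cxcr2 and Mmp9, had 5.87 CPM in the T1D library (4.49 to 7.55), against 114 CPM in the control library (106 to 122). The level was 19.3-fold lower in T1D cells (14.9 to 25.5). Immature neutrophils, which make the granule proteins Camp, Ngp and Ltf, had 12 counts or 0.739 CPM in the T1D library, against 177 counts or 13.7 CPM in the control library, which is 18.5-fold lower in T1D cells (10.3 to 36.5). Granulocyte-monocyte progenitors, which make Mpo and Elane, had 1.40 CPM in the T1D library and 10.8 CPM in the control library.

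Within the neutrophil classes the clusters differed. A cluster of dividing immature cells, led by Fcnb and Spc25, had 1 count of Ifi27l2a or 0.250 CPM in the T1D library, against 5 counts or 1.29 CPM in the control library. A second dividing cluster, led by Fcnb and Stfa1, had 0.4995 CPM in the T1D library and 33.1 CPM in the control library. The immature cluster led by Fcnb and Camp had 0 counts in 609 T1D cells, which allows up to 1.62 CPM, and 6.02 CPM in the control library. Among the other immature clusters, the one led by Orm1 had 1.87 CPM in the T1D library and 10.1 CPM in the control library, and the one with Ltf and Ly6g among its top genes had 0.648 CPM in the T1D library and 28.7 CPM in the control library. The mature cluster led by Mmp8 had 2.98 CPM in the T1D library and 52.3 CPM in the control library. A mature cluster led by Prok2 and Retnlg, with all 10 mature markers, had 5.42 CPM in the T1D library and 121 CPM in the control library. The mature cluster led by Acod1 and Cxcl2, genes induced in activated myeloid cells, had 15.3 CPM in the T1D library and 207 CPM in the control library. The cluster of Acod1 and Cxcl2 was the highest of these 8 in each library. In the control library the 3 mature clusters had more CPM than the 5 immature ones. The control intervals of the Mmp8 cluster (44.5 to 61.1) and of the Fcnb and Stfa1 cluster (23.2 to 45.8) overlapped. In the T1D library the intervals of the Mmp8 and Orm1 clusters overlapped.

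**Figure D2:**
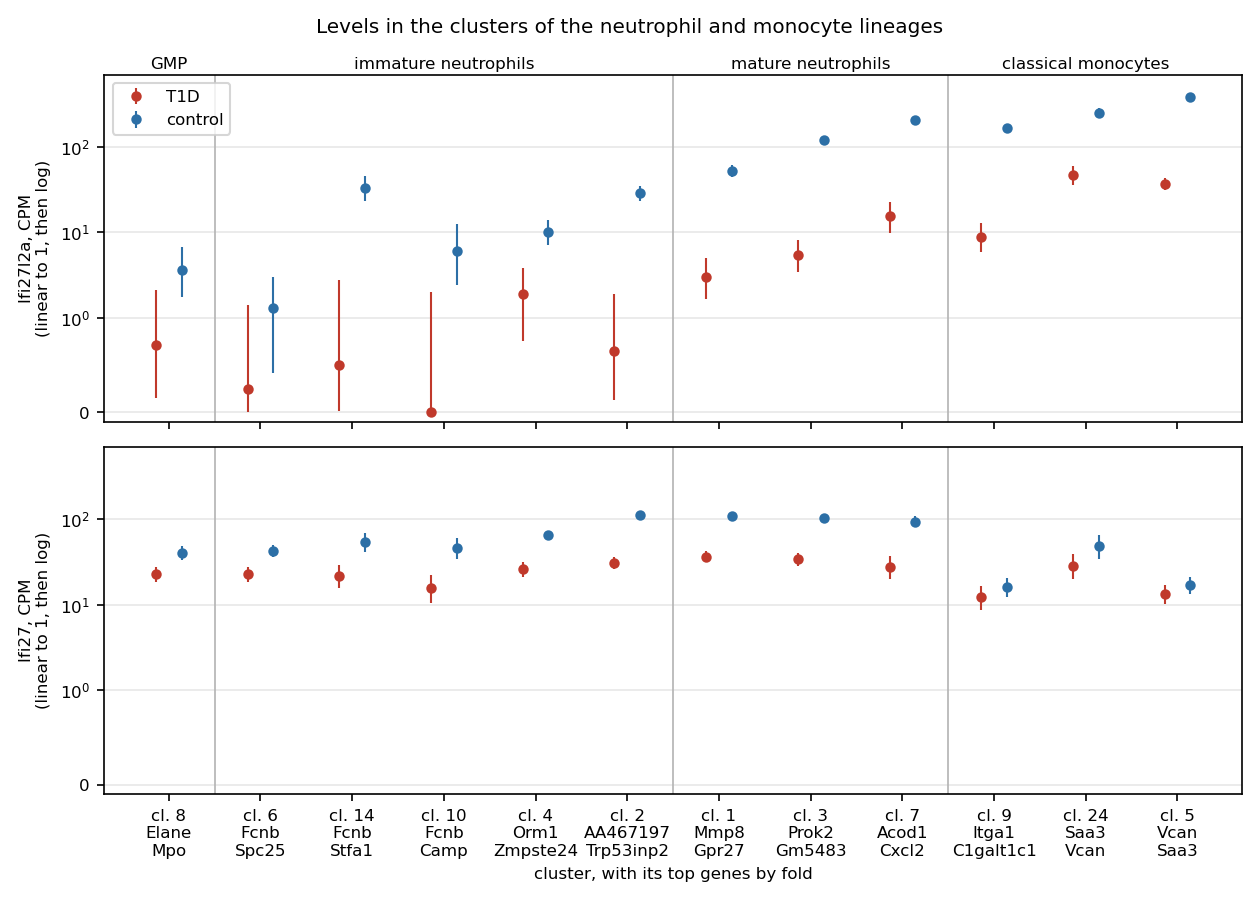
CPM in 12 clusters of the granulocyte-monocyte progenitor (GMP), neutrophil and monocyte classes, with T1D in red left of control in blue and exact Poisson 95% intervals; the axis is linear up to 1 CPM and logarithmic above. Control Ifi27l2a ran from 1.29 CPM in dividing immature neutrophils to 385 CPM in the largest monocyte cluster. T1D Ifi27l2a lay below control Ifi27l2a in every cluster shown. The intervals overlapped in the GMP cluster led by Elane and in the dividing cluster of Fcnb and Spc25. The other GMP cluster, led by Gria3 and Mpo, is not shown. Its Ifi27l2a intervals did not overlap, and neither did those of the GMP class as a whole.

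Ifi27 varied less. Across the 12 clusters plotted by library it lay between 12.2 and 36.6 CPM in the T1D library and between 16.1 and 113 CPM in the control library. It was already present in the progenitors led by Elane, at 22.6 CPM in the T1D library and 40.0 CPM in the control library. The activated cluster, the highest neutrophil cluster for Ifi27l2a, had 27.6 CPM of Ifi27 in the T1D library and 94.2 CPM in the control library. The other mature clusters had 36.6 and 34.0 CPM of it in the T1D library and 110 and 104 CPM in the control library. Mature neutrophils as a class had 34.2 CPM of Ifi27 in the T1D library (30.7 to 37.9), against 104 CPM in the control library (97.0 to 112), which is 3.05-fold lower in T1D cells. Immature neutrophils had 24.95 CPM in the T1D library and 67.6 CPM in the control library, which is 2.71-fold lower in T1D cells.

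Classical monocytes, where Ifi27l2a was highest, were the class with the lowest Ifi27 level in the control library. Their Ifi27 level was 15.04 CPM in the T1D library (12.7 to 17.8), against 19.1 CPM in the control library (16.5 to 22.1). The level was 1.27-fold lower in the T1D library (1.02 to 1.60), an interval that overlaps the 1.18 to 2.13 of T or NK cells.

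Counts of both genes were found in the lymphoid classes. In T or NK cells Ifi27l2a had 16.1 CPM in the T1D library and 75.4 CPM in the control library, which is 4.68-fold lower in T1D cells (3.24 to 6.90). Natural killer and T cells shared a cluster and were parted at Leiden resolution 2. There the natural killer cluster, led by Gzma and Klra8, had 4.16 CPM from 1 count in 83 T1D cells (0.105 to 23.2), against 70.9 CPM in 91 control cells (45.9 to 105). A T cell cluster led by Tcf7 and Trbc2 had 13.5 CPM in 359 T1D cells and 96.1 CPM in 123 control cells. Another, led by Ccl5 and Trbc2, had 15.6 CPM in 241 T1D cells (7.13 to 29.61). In 228 control cells it had 44.1 CPM (29.56 to 63.4), and the intervals overlapped. A cluster with T cell genes and 9 classical monocyte markers, left unnamed there, had 33.7 CPM in 63 T1D cells and 174 CPM in 29 control cells, and its cells stand within T or NK cells in the class value above. Mature B cells had 8.53 CPM of Ifi27l2a in the T1D library and 85.7 CPM in the control library. The 12 T1D counts all came from 1 of the 2 mature B cell clusters. The other, with Ccr7 and Cd83 among its leading genes, had 0 counts in 223 T1D cells, which allows up to 4.49 CPM, against 97.0 CPM in the control library. Control B cell precursors had 89.7 CPM of Ifi27l2a and 59.0 CPM of Ifi27.

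Plasmacytoid dendritic cells, the marrow's specialised makers of type I interferon, numbered 97 in the T1D library and 501 in the control library and fell short of the 100 cells set for a comparison. Ifi27l2a stood at 35.5 CPM in these T1D cells (19.9 to 58.6) and at 125 CPM in the control cells (111 to 140). Ifi27 stood at 37.9 CPM in the T1D cells (21.7 to 61.6) and at 23.1 CPM in the control cells (17.4 to 30.03). This was the single named class in which Ifi27 had more CPM in the T1D library, and its intervals overlapped.

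Ifi27 had its higher levels outside the monocytes. In erythroid cells, the red cell precursors, it had 29.8 CPM in the T1D library and 73.0 CPM in the control library. In stem or multipotent progenitors, whose top genes include Pf4 and Itga2b of the megakaryocyte lineage, it had 24.5 CPM in the T1D library and 64.0 CPM in the control library. Macrophages had 68.1 CPM (39.7 to 109) over 79 T1D cells and 81.5 CPM (51.7 to 122) over 57 control cells. Hemoglobin genes stood at 237% of their all-cell level in these T1D cells and at 245% in these control cells. The part of RNA from other cells in the macrophage values was not tested. Control stromal or endothelial cells had 124 CPM of Ifi27 (89.6 to 167) over 100 cells, in which neutrophil granule genes stood at 199% of their all-cell level. The part of neutrophil RNA in that value was not tested. The 47 T1D stromal or endothelial cells had 6 counts of Ifi27 and 0 of Ifi27l2a, and a count of 0 allows a share of cells of up to 6.38%.

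Setting the classes in order of Ifi27l2a, classical monocytes stood first in the control library, and their interval did not overlap that of the next class, plasmacytoid dendritic cells. Next in line, mature neutrophils overlapped plasmacytoid dendritic cells but not the B cell precursors after them. In the T1D library, plasmacytoid dendritic cells and classical monocytes came first and overlapped each other, T or NK cells came next, and below them all neighbouring classes overlapped. For Ifi27 every neighbouring pair of classes overlapped in both libraries.

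**Figure D3:**
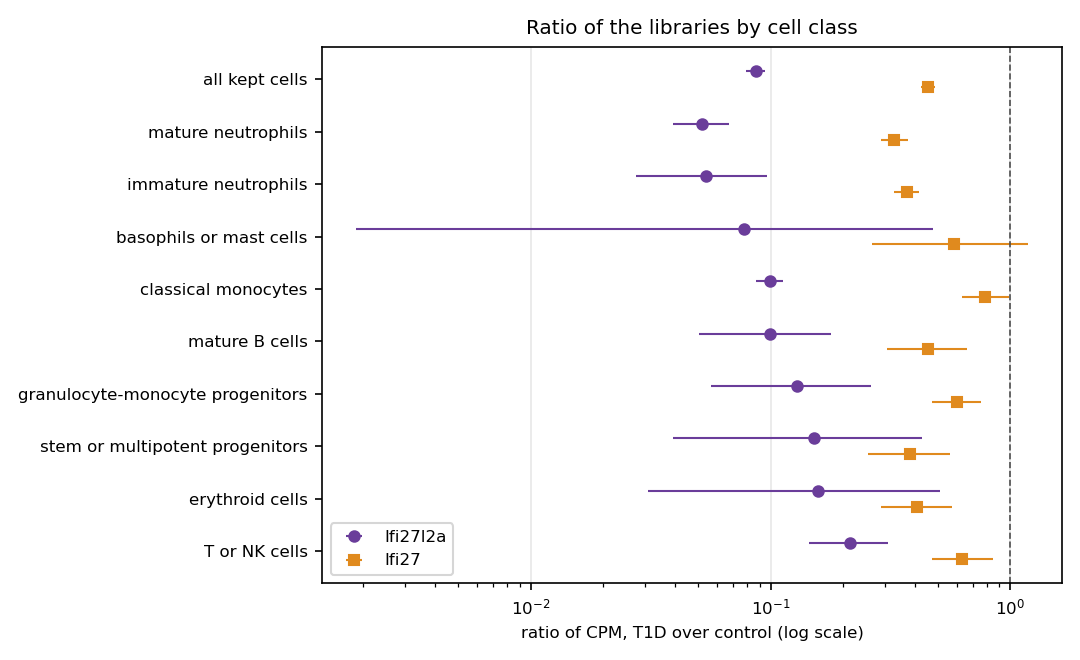
Ratio of CPM, T1D over control, on a log axis for all kept cells and the 9 classes with at least 100 cells in each library; circles are Ifi27l2a, squares Ifi27, bars exact binomial 95% intervals and the dashed line a ratio of 1. Ifi27l2a ratios lay from 0.0517 in mature neutrophils to 0.214 in T or NK cells, and Ifi27 ratios from 0.328 in mature neutrophils to 0.786 in classical monocytes.

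Both genes had a ratio of T1D to control below 1 in all 9 classes. The counting interval stayed below 1 in 9 of 9 classes for Ifi27l2a and in 8 of 9 for Ifi27, the exception being basophils or mast cells with 11 T1D and 32 control counts. In classical monocytes the Ifi27 interval ended just below 1, at 0.985, and reached past 1 under some other settings. A size rule was set on all genes: a log2 ratio of at least 1 with 5 CPM added to both, 50 CPM or more in the higher library, and an interval that excludes 1. Ifi27l2a passed it below the control in 4 classes, namely mature neutrophils, classical monocytes, mature B cells and T or NK cells. Below the control, the rule passed 0.171% of the genes tested in mature neutrophils, 0.165% in classical monocytes, 0.319% in mature B cells and 0.344% in T or NK cells. In the other 5 classes Ifi27l2a stayed under 50 CPM in both libraries, at 10.8 to 30.7 CPM in the control library, with log2 ratios between -2.28 and -1.31. Ifi27 passed the rule below the control in 5 classes, namely mature neutrophils, immature neutrophils, erythroid cells, stem or multipotent progenitors and mature B cells. The same share was 0.0484% in immature neutrophils, 0.215% in erythroid cells and 0.219% in stem or multipotent progenitors. In the classes where neither gene passed, it was 0.905% in basophils or mast cells and 0.109% in granulocyte-monocyte progenitors. Over all kept cells the rule passed 0.255% of genes below the control, both members among them, Ifi27 only just, at a log2 ratio of -1.004. Under TMM scaling Ifi27 stood at -0.89 and no longer passed. The genes were chosen on this contrast, so these shares are background and no more is read from them.

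Class makeup differed between the libraries, and the ratio over all cells was recomputed with the control levels weighted to the T1D makeup. Ifi27l2a then stood at 8.96 CPM in the T1D library, against 93.5 CPM in the reweighted control, a log2 ratio of -2.82 where the plain one was -2.96. Ifi27 stood at 25.4 CPM in the T1D library, against 60.1 CPM in the reweighted control, a log2 ratio of -1.10 where the plain one was -1.004.

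Free RNA in the suspension gives counts in cells that do not express a gene, and genes of known source were used to gauge it. Hemoglobin genes, made by erythroid cells, reached 29.6% of their all-cell level in T1D monocytes and 12.6% in control monocytes. The plasma cell genes Jchain and Igha reached 3.64% of theirs in T1D monocytes and 1.53% in control monocytes. At the hemoglobin level, free RNA would bring 2.65 CPM of Ifi27l2a to T1D monocytes, of 28.5 CPM seen, and 13.03 CPM to control monocytes, of 287 CPM seen. In mature neutrophils hemoglobin reached 82.4% in the T1D library and 65.7% in the control library, and plasma cell genes 6.76% in the T1D library and 4.02% in the control library. The hemoglobin level would bring 7.39 CPM to T1D mature neutrophils, above the 5.87 CPM seen, and 68.0 CPM to control mature neutrophils, of 114 CPM seen. At the plasma cell level the same figures were 0.606 CPM in the T1D library and 4.15 CPM in the control library. After subtraction of the hemoglobin-based amounts, Ifi27l2a passed the size rule in 1 class, classical monocytes, of 5 that kept a value in both libraries. T or NK cells (log2 ratio -1.14), mature B cells (-1.65) and stem or multipotent progenitors (-1.64) were still lower in the T1D library. What was left there, 33.3, 32.2 and 12.8 CPM in the control library, was under the rule's 50 CPM. Basophils or mast cells stood at -0.20.

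In T1D immature and mature neutrophils and in granulocyte-monocyte progenitors of both libraries, the Ifi27l2a class level did not exceed what hemoglobin would allow. By that gauge these levels are read as not distinguishable from background at this depth. The plasma cell level would allow less in T1D mature neutrophils, 0.606 CPM of the 5.87 CPM seen. Either gauge was held to at most the all-cell level, 8.96 CPM in the T1D library. The T1D mature cluster led by Acod1 and Cxcl2 lay above that, at 15.3 CPM (9.92 to 22.6). In control immature neutrophils hemoglobin would allow 19.2 CPM, more than the 13.7 CPM seen. In mature B cells plasma cell genes reached 15.96% of their all-cell level in the T1D library and 56.3% in the control library, where they would bring 58.2 CPM of Ifi27l2a, of 85.7 CPM seen. In T or NK cells they reached 109% in the T1D library and 4.62% in the control library. The neutrophil granule genes, among them S100a8, Camp and Ltf, reached 81.1% of their all-cell level in T1D mature B cells and 102% in control mature B cells. At the hemoglobin level, free RNA would bring control T or NK cells 42.1 of their 75.4 CPM of Ifi27l2a. The same figures were 53.5 of 85.7 CPM in control mature B cells and 69.1 of 89.7 CPM in control B cell precursors. In T1D cells they were 3.78 of 16.1 CPM in T or NK cells and 1.67 of 8.53 CPM in mature B cells. For Ifi27 in control B cell precursors they were 37.5 of 59.0 CPM. The part of free RNA in the levels and differences of the lymphoid classes was not tested.

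The share of Ifi27l2a in the pair's counts differed between classes. In the control library Ifi27l2a made up 93.7% of the pair's counts in classical monocytes (92.8% to 94.6%), 84.4% in plasmacytoid dendritic cells, 52.2% in mature neutrophils, 16.8% in immature neutrophils and 14.7% in erythroid cells (10.2% to 20.2%). In the T1D library it made up 65.4% in classical monocytes (60.6% to 70.1%), 30.8% in T or NK cells, 14.7% in mature neutrophils and 2.88% in immature neutrophils (1.496% to 4.97%). The share was lower in the T1D library in each of the 9 classes. Its intervals overlapped between the libraries in basophils or mast cells, erythroid cells and stem or multipotent progenitors, where T1D counts of Ifi27l2a were few. The genes are neighbours on opposite strands, and whether strand was used in counting is not given. They share no run of 30 bases in annotated protein-coding transcripts, while Ifi27l2a shares 28 of its 434 such runs with Ifi27l2b.

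In single cells, Ifi27l2a detection was compared between cells with and without an Ifi27 count. The intervals overlapped in each comparison, so neither a link nor its absence can be read at this depth. Among thinned control monocytes, Ifi27l2a was seen in 4 of 27 cells with an Ifi27 count, or 14.8% (4.19% to 33.7%), and in 22.8% of those without one (20.8% to 24.9%). Among thinned control mature neutrophils it was seen in 9.72% of cells with an Ifi27 count and in 9.21% of cells without. In T1D mature neutrophils it was seen in 2 of 120 cells with an Ifi27 count and in 0.4498% of cells without, with overlapping intervals.

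Other interferon response genes in the same cell were set beside the pair. For this, 20 core genes such as Isg15, Ifit1, Mx1 and Oas2 were summed in each thinned cell, a list chosen after the data were seen. Of T1D monocytes 4.74% had 2 or more core counts, and of control monocytes 14.4%. Ifi27l2a was seen in 4.90% of these T1D monocytes (1.61% to 11.1%) and in 2.83% of T1D monocytes with no core count (2.10% to 3.73%). It was seen in 33.6% of these control monocytes (27.6% to 40.0%) and in 20.8% of control monocytes with no core count (18.4% to 23.4%). Control mature neutrophils gave 14.3% (11.1% to 18.1%) with 2 or more core counts and 8.19% (6.87% to 9.68%) with none. In T1D mature neutrophils the shares were 0.329% (0.00833% to 1.82%) and 0.444% (0.249% to 0.731%). Control plasmacytoid dendritic cells gave 10.04% (6.72% to 14.3%) with 2 or more and 10.1% (5.15% to 17.3%) with none, and control B cell precursors 9.23% (3.46% to 19.0%) and 8.01% (6.64% to 9.56%). Among control monocytes with Ifi27l2a, 213 had no core count at this depth and 80 had 2 or more. At equal core counts the libraries stayed apart in monocytes, where the intervals did not overlap in any of the 3 bins. Ifi27 showed no such difference in control mature neutrophils, at 7.41% (5.05% to 10.4%) with 2 or more core counts and 8.58% (7.23% to 10.1%) with none.

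**Figure D4:**
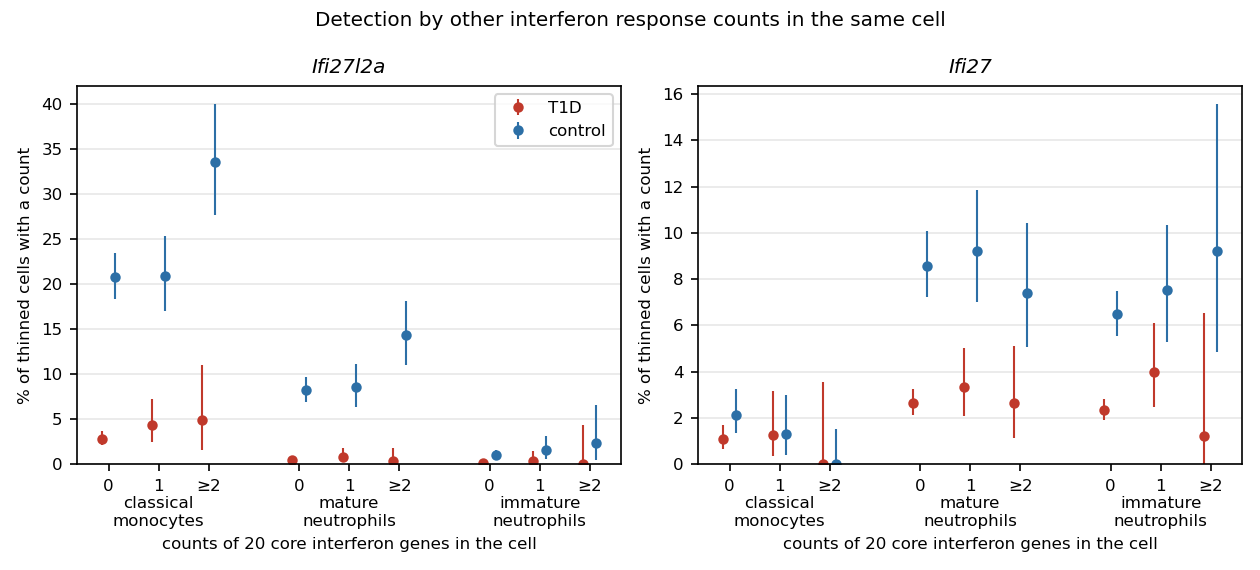
Percent of cells, thinned to 1000 counts, with a count of the gene, by the number of counts of 20 core interferon genes in the same cell; T1D in red left of control in blue, bars Clopper-Pearson 95% intervals. Ifi27l2a reached 33.6% in control monocytes with 2 or more core counts, against 20.8% with none, while Ifi27 stayed at or below 9.23% in every bin shown.

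The genes around the pair in the interferon response were compared through lists. Of 68 interferon response genes, 67 had counts over all kept cells, 63 with a ratio below 1 and 4 above it. Their median log2 ratio was -0.46, beside -0.01 over all genes tested and -0.08 over genes at 50 CPM or more. A ratio below 1 was found for 15738 of 27817 genes tested and for 1670 of 2779 at 50 CPM or more. The size rule, which needs 50 CPM, passed 71 of these 2779 genes below the control and 26 above it. Of all genes tested this was 0.255% lower and 0.0935% higher. Of the list, 5 genes were lower in the T1D library by the rule and 0 higher. These 5 were Ifi203 (log2 ratio -1.49), Ifi209 (-1.36), Slfn5 (-1.26), the antiviral tether Bst2 (-1.48) and the virus entry inhibitor Ifitm3 (-1.16). Ifi203 and Ifi209 belong to the nucleic acid sensing Ifi200 family. The list genes with the most counts were Ly6e, Slfn4, Ifitm3, Samhd1 and Ifitm2, with log2 ratios of -0.64, -0.11, -1.16, -0.09 and 0.05. On this scale, which draws low genes towards 0, Ifi27l2a stood at -2.96 and Ifi27 at -1.004. As plain ratios of low counts, Ifi44 was 18.2-fold lower in the T1D library, with 9 counts against 182 in the control library, beyond the 11.5-fold of Ifi27l2a. In classical monocytes Ifit3 was 10.5-fold lower, with 6 counts in the T1D library and 65 in the control library, and Ifi213 9.88-fold lower, beside 10.1-fold for Ifi27l2a.

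By class, the list median was -0.64 in classical monocytes, with 62 of 67 genes below a ratio of 1, beside -0.07 for genes at 50 CPM or more. A ratio below 1 was found there for 9977 of 19942 genes tested and for 1771 of 3054 at 50 CPM or more. The size rule passed 33 of these 3054 genes below the control. There Slfn5, Ifi203 and Ifitm3 were lower by the size rule, at 2.80-fold, 2.75-fold and 2.64-fold, and the Ifi27 log2 ratio of -0.27 was nearer to 0 than the list median. In mature neutrophils the median was -0.44, with 59 of 65 genes below 1. A ratio below 1 was found there for 7836 of 18711 genes tested and for 1083 of 1999 at 50 CPM or more. The size rule passed 32 of these 1999 genes below the control. There Ifit1bl2, Ifi204, Ifitm3, Oas3 and Oasl2 were lower by the rule, at 5.00-fold, 3.33-fold, 2.63-fold, 2.30-fold and 2.27-fold. In immature neutrophils the median was -0.17. Ifitm3 alone of the list was lower by the rule, which passed 10 of 2165 genes at 50 CPM or more there. Ly6e had the highest ratio of the list in both neutrophil classes, at log2 0.83 in mature and 0.74 in immature neutrophils, without passing the rule.

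**Figure D5:**
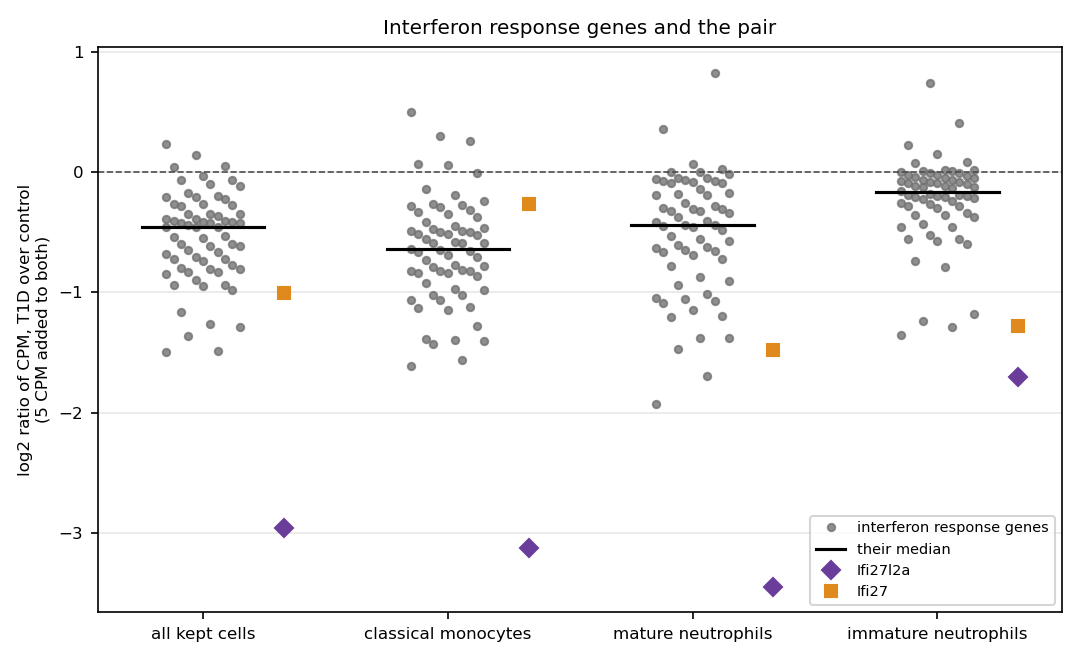
Log2 ratio of CPM, T1D over control, with 5 CPM added to both, for interferon response genes (grey), their median (black line), Ifi27l2a (diamond) and Ifi27 (square), in all kept cells and 3 classes. Ifi27l2a lay below every list gene in each column, at -2.96, -3.12, -3.45 and -1.70, while Ifi27 lay above the list median in classical monocytes and below it in the other columns.

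Upstream, the type I interferon genes themselves were all but absent. Of 18 such genes 3 had any count: Ifnb1 had 0 in the T1D library and 1 in the control library, Ifnk 3 in the T1D library and 2 in the control library, and Ifnz 1 in the T1D library and 0 in the control library. Of 17 signalling genes, 14 had a ratio below 1, beside 15738 of 27817 genes tested. Irf8, a factor of monocyte and dendritic cell development, passed the size rule at log2 -1.17. Its ratio within classical monocytes was nearer to 1, at log2 -0.26. The receptor gene Ifnar1 stood at log2 -0.37, Stat2 at -0.61 and Irf7, which amplifies the response, at -0.85, none passing the rule. Ifngr1, a receptor chain for interferon gamma, stood at 0.37. Among reported ISG12 partners, Nr4a1 stood at -0.05, Nr4a2 at -0.78, Nr4a3 at -0.16, the nuclear export receptor Xpo1 at -0.63 and the ubiquitin ligase subunit Skp2 at -0.28, none passing the rule.

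Likeness to each member was measured as the Pearson correlation of log2(CPM + 5) over 26 pairs of class and library, among 5892 genes that reached 50 CPM in at least 1 pair. Most like Ifi27l2a were 9930111J21Rik2 (0.72), B2m (0.71), which encodes the light chain of class I histocompatibility molecules, Trim30d (0.71), the interferon regulatory factor Irf2 (0.70) and the junctional adhesion gene Jaml (0.70). Within the T1D library alone these were 0.70, 0.58, 0.80, 0.37 and 0.79 over 12 classes, and within the control library 0.81, 0.43, 0.81, 0.77 and 0.78 over 14 classes. Most like Ifi27 were Trip4 (0.70), Ifit1bl2 (0.66), BC031181 (0.66), the mitochondrial arginase Arg2 (0.65) and the AMP-activated kinase subunit Prkab1 (0.65). Ifi27 and Ifi27l2a had a correlation of 0.30 with each other, -0.06 within the T1D library and -0.28 within the control library. The points share 2 libraries and their free RNA, and the values are descriptions.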

How the data were processed

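The authors deposited 1 table per library, which holds raw counts for each gene and barcode as whole numbers. Per the submitters' processing notes, bcl2fastq 2.19 and featureCounts were used, with mouse build mm9. The sources used here give no aligner, annotation, strand setting, cell calling or collapse of molecular identifiers. No coordinates are printed, as the reference annotation has a different build. Members and gene lists were chosen with earlier results of these data known.

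Barcodes under 200 genes or over 20% mitochondrial counts were dropped, 192 of them T1D and 77 control. No doublet caller was run, and doublets stayed in. The 2000 most variable genes per library, merged and without hemoglobin, mitochondrial, Xist, Y-linked, receptor variable, Ifi27 family and most interferon response genes (3293 in all), gave 30 components and a graph of 15 neighbours. It was partitioned by the Leiden method (igraph 0.11.9) at resolution 1, keeping the best modularity of 10 starts (0.898), without batch integration. Clusters were named where 3 or more markers reached 50 CPM and 2 times the level elsewhere. Counts were summed per class and library with numpy 2.4.6 and scipy 1.17.1. Nuclear ribosomal RNA took 34.0% of T1D and 30.3% of control counts.

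Ratios carry exact conditional binomial intervals, CPM exact Poisson and shares Clopper-Pearson intervals, all at 95%. Where a count was 0, the limit is that of 3 counts. No test was made, as each group has 1 library. On counts simulated over all kept cells (24851 genes), the size rule found 0 of 50 genes changed 1.5-fold, 2 of 50 changed 2-fold, 49 of 50 changed 3-fold and 49 of 50 changed 4-fold. Genes named were the pair and Ifi27l2b, the 5 most like each member, list genes passing the rule or with the most counts, and leading cluster genes. Further genes are named as examples, after their values were seen. Alternatives used edgeR 4.0.16 and DESeq2 1.42.0 scaling (R 4.3.3), other filters, totals, added CPM, partitions and free RNA subtraction.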

Additional observations from a re-analysis of the deposited data

How the results depend on the processing

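No paired analysis was possible because each group has 1 library, and no replicate could be left out for the same reason. The direction of neither gene changed over all kept cells. By class, the alternatives gave 137 values of Ifi27l2a and 143 of Ifi27, all below 0. Of them, 10 and 7 moved from the value reported by more than its counting interval reaches from its centre (log2). Changing the added CPM or the CPM minimum cannot change a sign, so the direction of those values was fixed in advance. Classes with a level at or under the subtracted free RNA gave no value, so their direction after subtraction is not counted. Over all kept cells, adding 1 CPM gave log2 ratios of -3.39 for Ifi27l2a and -1.11 for Ifi27, and adding none gave -3.53 and -1.14. TMM scaling gave -0.89 for Ifi27, with plain ratios shifted by 0.13 (log2), and DESeq2 size factors gave -0.92, with a shift of 0.11. With totals taken without ribosomal RNA, Ifi27 stood at -0.97. Under these 3 settings, and at most 10% mitochondrial counts, Ifi27 over all cells no longer passed the size rule. With no CPM minimum, Ifi27l2a passed the size rule below the control in 9 classes, against 4 with it. Thinning to 1000 counts left Ifi27 passing in 2 classes, against 5. The upper end of the Ifi27 ratio interval in classical monocytes, 0.985, rose to 1.02 under TMM scaling and without ribosomal RNA. It was 1.02 at Leiden resolution 2, 1.05 from another start and 1.09 after thinning. Under other settings it stayed below 1, as with DESeq2 size factors (0.996). Subtracting free RNA at the hemoglobin level left Ifi27l2a passing in 1 of the 5 classes that kept a value in both libraries, classical monocytes at -3.18, and Ifi27 in 3 of 8. At the plasma cell level 3 of 6 and 5 of 9 classes passed. In both subtractions the 50 CPM minimum was set on the level left, and the interval was that of the unsubtracted counts. Classes with no value had a level at or under the subtracted one in at least 1 library, mature neutrophils at the hemoglobin level among them. Erythroid cells were left out at the hemoglobin level because they make those genes. For Ifi27l2a the counts limit the T1D side most, with 1 count in basophils or mast cells and 3 in erythroid cells. The cause of these moves was not tested.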

Other observations

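Cells outside the named classes also held the pair. Of 3 unnamed clusters, the one led by Ace and class II histocompatibility genes such as H2-Ab1, with Cd209a and C1qb, had 56.2 CPM of Ifi27l2a in 183 T1D cells, against 287 CPM in 280 control cells. A cluster with markers of both B cells and monocytes had 19.1 CPM in 63 T1D cells and 231 CPM in 255 control cells. A cluster led by Mrvi1, Rab27b and Pf4 had 1 count in 70 T1D cells and 7 counts in 34 control cells.

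At Leiden resolution 2 the monocytes parted further. A cluster led by Apoe and Cx3cr1, which held 9 classical monocyte markers while the nonclassical marker Cx3cr1 was among its top genes, had 69.5 CPM of Ifi27l2a in 160 T1D cells, against 542 CPM in 296 control cells, the highest level of Ifi27l2a in the control library among the clusters of both resolutions. Nonclassical monocytes, the Ace- and Treml4-expressing cells that patrol vessels, had 36.9 CPM in 129 T1D cells and 190 CPM in 105 control cells. Their Ifi27 level was 47.5 CPM in the T1D library and 67.5 CPM in the control library, above that of the classical monocytes in both.

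Among interferon response genes under the 50 CPM minimum, Oas1g also stood low in the T1D library, with 10 counts in the T1D library and 104 in the control library.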
